A study of Mus musculus with 13 samples.

Results

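The 9 genes described here encode the mouse enzymes, receptors and inhibitors that act at the cell surface in plasminogen activation and at the start and the control of coagulation: Serpine2, Plau, Plaur, Plat, F3, F2r, Thbd, Procr and Tfpi. They were chosen by symbol from a table of 43346 gene entries, and each of the 9 was found once. All 9 passed the filter on low values, which asked for at least 1 RPKM (reads per length of gene and library size) in at least 2 libraries. Their levels were measured by RNA sequencing in 13 libraries of lung fibroblasts in 4 groups. There were 5 libraries from day 30 after bleomycin, 3 from day 14 after bleomycin, 3 from day 14 after pneumonectomy and 2 from sham. Bleomycin damages the lung and is used to model its scarring, whereas pneumonectomy, in which 1 lung is taken out, sets off growth of the other.

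The sham and bleomycin libraries came from Col1a1-GFP mice aged 8 weeks, a reporter strain whose green fluorescence is under the control of a collagen gene promoter. The series design names this reporter, spelled Co11a1-GFP there, for all groups, and the table calls the mice of every column young. For pneumonectomy the sample labels name primary sorted fibroblasts, and give no strain and no age. No gate, dose or sex is stated, and no label says whether a library is 1 mouse or a pool. For sham no day is given, so this reference cannot be matched in time to the injured groups. Since the 3 columns for pneumonectomy have no number, letters (A, B, C) stand for them here.

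Plasminogen activators cut plasminogen into plasmin, the protease that dissolves fibrin and helps to degrade matrix. Plau encodes the urokinase-type and Plat the tissue-type activator, Plaur the surface receptor that holds urokinase on the cell, and Serpine2 a serpin, protease nexin, that blocks both activators and thrombin. F3 is tissue factor, the surface protein that starts coagulation by binding factor VII, and Tfpi is the inhibitor of that step. F2r is a receptor that thrombin switches on by cleavage. Thbd (thrombomodulin) and Procr (the endothelial protein C receptor) work together to let thrombin activate protein C, an anticoagulant. In injured lung, fibrin is laid down in the air spaces, and its removal depends on plasmin.

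On the GRCm38 assembly, in GENCODE release M21, Serpine2 lies on chromosome 1 from 79794197 to 79861180, F3 on chromosome 3 from 121723537 to 121735048 and Plaur on chromosome 7 from 24462484 to 24475968. Plat lies on chromosome 8 from 22757727 to 22782844, F2r on chromosome 13 from 95601803 to 95618487 and Plau on chromosome 14 from 20836660 to 20843385. Chromosome 2 holds Tfpi from 84432855 to 84476775, Thbd from 148404466 to 148408188 and Procr from 155751117 to 155755471. No other gene annotated there overlaps any of the 9 on either strand.

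RefSeq promoter windows (GRCm38.p6) were matched for 6 of the 9 genes, Tfpi with 2 windows; the others are Plau, Plat and Thbd. The 250 bases before the start site are shown for the genes that were higher after both injuries at day 14 (Serpine2, Plaur, F2r), for the one that was lower after both (F3) and for Procr, which like Plau was lower after bleomycin and higher after pneumonectomy. Capitals mark matches on either strand to TGANTCA, the letters bound by AP-1 factors, and to GCGNGGGCG, those bound by EGR factors.
Serpine2, chr1:79858666-79858915, minus strand: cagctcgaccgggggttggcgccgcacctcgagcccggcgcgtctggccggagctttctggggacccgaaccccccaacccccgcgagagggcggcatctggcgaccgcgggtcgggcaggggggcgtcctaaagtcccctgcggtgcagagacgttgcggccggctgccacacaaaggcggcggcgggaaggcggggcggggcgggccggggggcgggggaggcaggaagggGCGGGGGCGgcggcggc
Plaur, chr7:24462233-24462482, plus strand: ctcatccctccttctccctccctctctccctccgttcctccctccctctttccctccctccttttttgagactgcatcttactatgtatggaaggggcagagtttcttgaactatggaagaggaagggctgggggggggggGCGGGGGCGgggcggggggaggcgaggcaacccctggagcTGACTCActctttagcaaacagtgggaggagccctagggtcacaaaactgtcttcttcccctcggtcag
F2r, chr13:95618467-95618716, minus strand: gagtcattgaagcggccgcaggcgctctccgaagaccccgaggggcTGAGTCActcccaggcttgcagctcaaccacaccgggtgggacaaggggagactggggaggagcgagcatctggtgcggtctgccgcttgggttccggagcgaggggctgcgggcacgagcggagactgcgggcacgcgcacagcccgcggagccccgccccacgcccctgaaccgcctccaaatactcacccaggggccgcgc
F3, chr3:121723287-121723536, plus strand: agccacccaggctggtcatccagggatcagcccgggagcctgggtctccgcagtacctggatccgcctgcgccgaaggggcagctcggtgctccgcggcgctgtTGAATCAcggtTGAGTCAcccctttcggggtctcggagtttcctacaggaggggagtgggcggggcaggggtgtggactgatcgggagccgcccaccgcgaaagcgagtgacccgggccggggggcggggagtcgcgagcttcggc
Procr, chr2:155750967-155751216, plus strand: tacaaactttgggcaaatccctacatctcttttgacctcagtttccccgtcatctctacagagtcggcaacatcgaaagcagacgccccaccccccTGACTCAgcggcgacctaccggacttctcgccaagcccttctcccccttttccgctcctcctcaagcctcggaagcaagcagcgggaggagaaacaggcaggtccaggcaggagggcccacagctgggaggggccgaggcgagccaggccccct

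TGANTCA was found in 4 of the 6 genes, F2r, F3, Plaur and Procr, and in 6.75% of 32851 promoter windows of the same length. F3 held 2 copies, TGAATCA and TGAGTCA, whose first bases lie 146 and 135 bases before the start site. Plaur held TGACTCA at 69, Procr TGACTCA at 154 and F2r TGAGTCA at 204 bases before it. GCGNGGGCG was found in Plaur and Serpine2, both times as GCGGGGGCG, and in 4.70% of all windows. The GC box GGGCGG was found in 5 of the 6 genes against 32.7% of all windows, with 6 copies in Serpine2, whose window is 78.8% G and C where the median window is 52.4%. A loose form of the NF-kB motif was found in 5 of 6 (45.8% of all windows), TATAAA in Tfpi alone (12.4%) and GGAATG, the letters of TEAD factors, in none of the 6 (12.6%). The 4 genes with TGANTCA include ones that were higher and ones that were lower after bleomycin, so these letters do not sort the genes by direction, and a match is not shown to be a binding site.

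Depth, read from the smallest values in the table, in M reads, ranged over 133 to 200.2 for day 30 and 79.9 to 99.9 for day 14 of bleomycin, 68.9 to 75.4 for pneumonectomy and 67.6 to 71.97 for sham. The least covered of the 9 genes, Procr, still held an estimated 558 reads in its poorest library. Of 7 fibroblast markers, Col1a1 was at 437 to 1633 RPKM and Pdgfra at 32.0 to 75.3 RPKM over all libraries. At day 14 after bleomycin 1 of the 7 was higher than in sham and 3 were lower. These were Dcn, at 139 ± 26.9 RPKM against 1619 ± 335 RPKM in sham (log2 change -3.78), Lum (-2.24) and Pdgfra (-1.05), in the same libraries in which F3 and Thbd were lower, and their part in those results was not tested. Markers of other cells were also measured, and none of the endothelial, macrophage, mesothelial or pericyte markers was at 0 in any library. The summed RPKM of 10 endothelial markers was 13.2 to 16.7 at day 30 after bleomycin, 298 to 578 at day 14, 18.7 to 44.5 after pneumonectomy and 21.6 and 25.1 in sham. Of these 10 markers, 9 were higher and 0 lower at day 14 after bleomycin than in sham. After pneumonectomy 9 were higher than in sham and 1, Tek, was lower (log2 change -1.53), with a median of 1.84 over the 10. Tek alone had 15.5 and 15.9 RPKM in sham replicates 1 and 2, so the sums hide the rise of the others. For 9 macrophage and monocyte markers the sums were 199 to 743, 131 to 453, 26.8 to 46.4, and 25.9 and 32.6 in the same order. For 6 mesothelial markers they were 4.35 to 21.0, 2.63 to 4.86, 12.5 to 43.5, and 2.02 and 3.13. For 7 pericyte and smooth muscle markers they were 133 to 169, 91.0 to 124, 273 to 393, and 166 and 301. The sex of the mice differed too, since Xist was at 19.9 to 29.2 RPKM and the Y-linked Ddx3y at 0 in all day 30 libraries. The day 14 bleomycin and pneumonectomy libraries had Xist at 0.00448 to 0.0222 RPKM and Ddx3y at 9.91 to 23.8 RPKM. Sham replicate 1 held both (15.9 and 2.14 RPKM), so its RNA looked like a mix of female and male, and how that arose was not tested. Sham replicate 2 held Xist at 0.0147 and Ddx3y at 11.4 RPKM. Sex therefore cannot be told apart from day 30 in any comparison of that group. Depth cannot either, since every day 30 library had more reads than any other library (at least 133 M against at most 99.9 M).

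**Figure D1:**
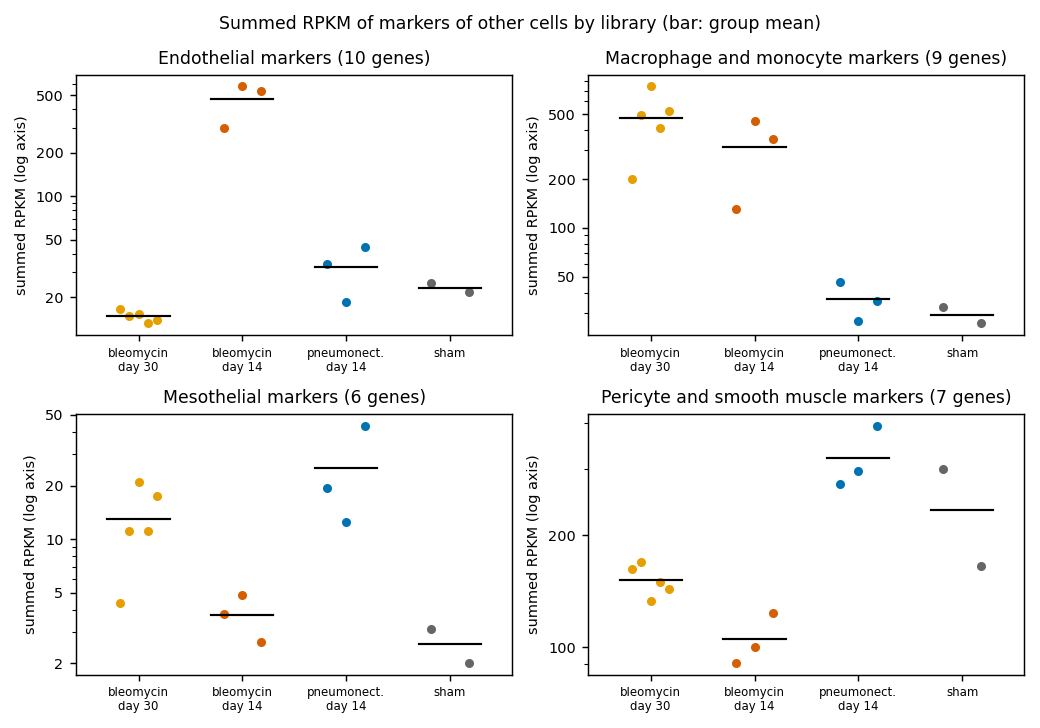
Summed RPKM (log axis) of markers of 4 other cell types in each library, by group, with a point per library and a bar at the group mean. The 3 day 14 bleomycin libraries lie at 298 to 578 for endothelial markers, above all other libraries, and the pneumonectomy libraries reach 43.5 for mesothelial markers.

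The comparisons asked how scarring and regrowing lung differ from sham and from each other. At day 14 after bleomycin, 4 of the 9 genes were higher than in sham (Serpine2, Plaur, F2r, Tfpi), 4 were lower (F3, Thbd, Procr, Plau) and Plat was not called. A gene was called where its adjusted p in the limma fit over all genes was under 0.05. In the same comparison 63.3% of 12938 genes were called (33.4% higher and 29.9% lower), which is the background for the 8 of 9. The median absolute log2 change of the 9 was 1.13, beside 0.44 over all genes, a description with no test. Over sham it was 0.68 beside 0.29 after pneumonectomy and 0.64 beside 0.20 at day 30. For day 14 bleomycin over pneumonectomy it was 0.68 beside 0.49. Day 30 gave 0.36 beside 0.32 over day 14, and 0.52 beside 0.32 over pneumonectomy. After pneumonectomy 5 were higher than in sham (F2r, Procr, Plaur, Serpine2, Plau), F3 was lower and 3 were not called (42% of all genes called, 22.6% higher and 19.3% lower). At day 30 after bleomycin 2 were higher than in sham (Serpine2 and F2r), 3 were lower (Thbd, F3, Plau) and 4 were not called (28.8% of all genes, 14.8% higher and 14.1% lower).

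Set directly against pneumonectomy, day 14 bleomycin fibroblasts had 2 of the 9 genes higher (Serpine2 and Plaur), 6 lower (Procr, F3, Plau, Thbd, F2r, Plat) and Tfpi not called, where 70.8% of all genes were called, 36.2% higher and 34.6% lower. Between day 30 and day 14 after bleomycin 4 of the 9 differed, F3 higher and Plaur, F2r and Tfpi lower (59.6% of all genes, 28.9% higher and 30.7% lower). Between day 30 after bleomycin and pneumonectomy 6 differed, Serpine2 higher and Procr, Plaur, F2r, Plau and Plat lower (57.6% of all genes, 28.5% higher and 29% lower). The comparisons share libraries and are not independent of each other. Fold changes are on the log2(value + 0.1) scale after scaling between libraries, and adjusted p-values are from limma with Benjamini-Hochberg adjustment.

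**Figure D2:**
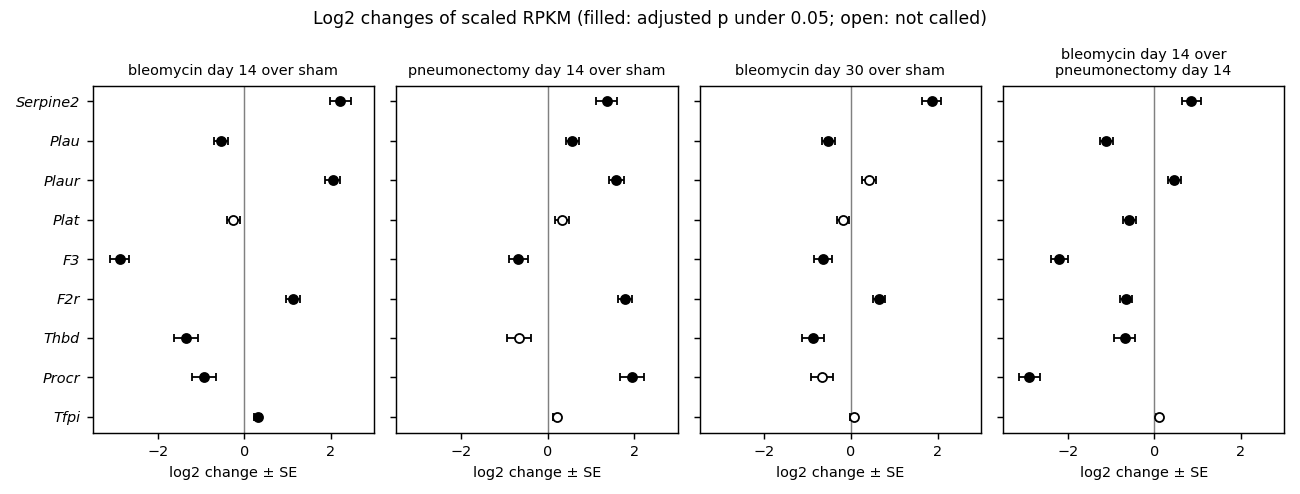
Log2 changes of scaled RPKM (x axis, ± SE of the limma fit) of the 9 genes in 4 comparisons, with filled points for an adjusted p under 0.05. F3 lies at -2.88 for day 14 bleomycin over sham and Procr at -2.89 for day 14 bleomycin over pneumonectomy, while Procr is at 1.95 for pneumonectomy over sham.

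Serpine2 rose over sham after both injuries, and more after bleomycin. It had 35.2, 55.6, 43.2, 65.3 and 66.1 RPKM in the 5 day 30 bleomycin libraries, 79.2, 63.1 and 74.6 RPKM at day 14 after bleomycin, 26.0, 26.8 and 34.2 RPKM after pneumonectomy, and 13.7 and 12.4 RPKM in sham. All 11 libraries of injured lung lay above both sham libraries. The log2 change over sham was 2.22 ± 0.24 at day 14 after bleomycin (SE, adjusted p = 9.90e-06), a 4.65-fold rise, 1.36 ± 0.24 after pneumonectomy (adjusted p = 0.00102) and 1.86 ± 0.22 at day 30 (adjusted p = 2.55e-04). It was higher at day 14 after bleomycin than after pneumonectomy by 0.85 ± 0.21 (adjusted p = 0.00365). Day 30 and day 14 overlapped, and their difference of -0.36 ± 0.19 was not called (adjusted p = 0.130). In order of level the groups ran from day 14 and day 30 bleomycin, which did not differ beyond their spread, to pneumonectomy and then sham. The step from day 30 to pneumonectomy, 0.50 ± 0.19, was called (adjusted p = 0.0424), and that call was lost with no filter on low values, with the compared groups fitted alone, and without any one of bleomycin replicates 2, 4 and 5 or pneumonectomy libraries A and B (adjusted p = 0.0788 to 0.132).

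Plaur, the urokinase receptor, rose at day 14 after both injuries. It had 8.65, 8.46, 9.89, 10.4 and 10.6 RPKM at day 30 after bleomycin, 32.7, 34.1 and 30.6 RPKM at day 14 after bleomycin, 18.1, 18.3 and 15.1 RPKM after pneumonectomy, and 8.17 and 5.29 RPKM in sham. The day 30 libraries lay under every day 14 library of either injury and, in deposited RPKM, just above sham. After scaling between libraries, day 30 replicates 1 and 2 (8.29 and 8.14) lay below sham replicate 1 (8.48). The log2 change over sham was 2.04 ± 0.17 at day 14 after bleomycin (adjusted p = 1.27e-06) and 1.59 ± 0.17 after pneumonectomy (adjusted p = 4.13e-05). At day 30 it was 0.42 ± 0.15 (adjusted p = 0.0634) and not called, although it was called on the scale as deposited (0.53) and without sham replicate 1 (0.73). Plaur was lower at day 30 than at day 14 after bleomycin, by -1.63 ± 0.13 (adjusted p = 1.31e-06), and lower than after pneumonectomy, by -1.17 ± 0.13 (adjusted p = 2.94e-05). The difference between day 14 bleomycin and pneumonectomy, 0.46 ± 0.15, was called (adjusted p = 0.0174). It was lost without pneumonectomy library C (0.33) or bleomycin replicate 1 (adjusted p = 0.05001).

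Macrophages also make Plaur. The 3 day 14 bleomycin libraries had summed macrophage markers of 131, 453 and 354 RPKM beside Plaur levels of 32.7, 34.1 and 30.6 RPKM. The day 30 libraries, with 199 to 743 RPKM of those markers, had a mean Plaur of 9.61 RPKM, against 32.4 RPKM at day 14. Lyz2 alone had a mean of 368 RPKM at day 30 and 210 RPKM at day 14, so it weighs most in these sums. Of the 9 macrophage markers, 1 was higher at day 30 than at day 14 (Cd68, log2 change 0.89). Another 2 were lower, Csf1r (-0.81) and Itgam (-0.96), and 6 were not called. The endothelial markers summed to 298 to 578 RPKM at day 14 after bleomycin and to 13.2 to 16.7 RPKM at day 30. They were at 18.7 to 44.5 RPKM after pneumonectomy and at 21.6 and 25.1 RPKM in sham. Of the 10 endothelial markers, 9 were higher and 1 lower after pneumonectomy than in sham. The part of macrophages or of other cells in the Plaur levels was not tested. In bulk libraries, a change in the number of cells of a type and a change in RNA per cell cannot be told apart.

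The activators varied less between libraries than their receptor. Plat had 45.4, 47.9, 44.4, 48.8 and 51.8 RPKM at day 30 after bleomycin, 50.8, 48.2 and 50.5 RPKM at day 14, 60.3, 62.7 and 41.2 RPKM after pneumonectomy, and 49.5 and 50.6 RPKM in sham. It was not called against sham in any group, with log2 changes of -0.25 ± 0.16, 0.33 ± 0.16 and -0.19 ± 0.14 at day 14 after bleomycin, after pneumonectomy and at day 30 (adjusted p = 0.184, 0.117 and 0.344). With the compared groups fitted alone, the day 14 bleomycin change of -0.30 was called (adjusted p = 0.0307). Pneumonectomy library C stood below the other two, and without it Plat was called over sham (0.53, adjusted p = 7.87e-04). Plat was lower at day 14 after bleomycin than after pneumonectomy by -0.58 ± 0.14 (adjusted p = 0.00304), and at day 30 by -0.52 ± 0.13 (adjusted p = 0.00421). Both calls were lost on the scale as deposited (-0.11 and -0.18).

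Plau was the lower of the 2 activators at every point. It had 4.66, 3.85, 4.63, 4.07 and 5.28 RPKM at day 30 after bleomycin, 4.92, 4.73 and 4.87 RPKM at day 14, 9.52, 7.43 and 6.32 RPKM after pneumonectomy, and 5.63 and 6.34 RPKM in sham. Against sham it fell by 0.54 ± 0.16 on the log2 scale at day 14 after bleomycin (adjusted p = 0.0117) and by 0.53 ± 0.15 at day 30 (adjusted p = 0.0207), and rose by 0.57 ± 0.16 after pneumonectomy (adjusted p = 0.0141). The direct difference between day 14 bleomycin and pneumonectomy was -1.11 ± 0.14 (adjusted p = 2.91e-05), with no overlap of the libraries, and that between day 30 and pneumonectomy was -1.10 ± 0.13 (adjusted p = 3.18e-05). The calls against sham were each lost when 1 sham library was left out (adjusted p = 0.0558 to 0.154), and those at day 14 also on the scale as deposited (-0.30 and 0.35). The calls between bleomycin and pneumonectomy were kept under all alternatives run.

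Set per library against the sum of Plat and Plau, Serpine2 stood at 0.702 to 1.24 at day 30 after bleomycin, 1.19 to 1.42 at day 14, 0.373 to 0.721 after pneumonectomy, and 0.218 and 0.248 in sham (ratios of RPKM). In this ratio day 30 overlapped with day 14 bleomycin and with pneumonectomy, and no group overlapped with sham. Plaur relative to Plau stood at 1.85 to 2.56 at day 30, 6.28 to 7.22 at day 14 after bleomycin, 1.90 to 2.46 after pneumonectomy, and 0.834 and 1.45 in sham.

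F3 had the largest log2 fall against sham of the 9 genes. It had 43.2, 38.4, 27.5, 25.8 and 25.6 RPKM at day 30 after bleomycin, 5.78, 8.38 and 7.64 RPKM at day 14 after bleomycin, 24.4, 23.2 and 24.8 RPKM after pneumonectomy, and 43.5 and 46.7 RPKM in sham. At day 30, replicates 1 and 2 came near to sham and replicates 3, 4 and 5 near to the pneumonectomy libraries. Against sham F3 fell by 2.88 ± 0.22 on the log2 scale at day 14 after bleomycin (adjusted p = 8.40e-07). It was also lower than after pneumonectomy, by -2.20 ± 0.20 (adjusted p = 2.00e-06), and it was higher at day 30 than at day 14, by 2.23 ± 0.18 (adjusted p = 1.03e-06). These 3 calls were kept under all alternatives run. The smaller falls against sham, -0.68 ± 0.22 after pneumonectomy (adjusted p = 0.0294) and -0.64 ± 0.20 at day 30 (adjusted p = 0.0355), were lost when either sham library was left out (adjusted p = 0.0772 and 0.137, and 0.107 and 0.175, without replicates 1 and 2). That after pneumonectomy was also lost without any one of the 3 pneumonectomy libraries (adjusted p = 0.0538 to 0.0587), and that at day 30 without any one of bleomycin replicates 3, 4 and 5 (adjusted p = 0.0649 to 0.0672). Lung epithelium also makes F3. The library with the most epithelial RNA, day 30 replicate 3, had 7 marker genes summing to 1232 RPKM. Its F3, at 27.5 RPKM, was inside the range of its group. The same markers summed to 497, 97.0 and 42.2 RPKM in pneumonectomy libraries A, B and C. They summed to 9.19 to 25.5 RPKM at day 14 after bleomycin, and to 16.1 and 11.6 RPKM in sham. The part of epithelium in F3 was not tested.

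Tfpi, the inhibitor of the tissue factor step, varied least after Plat in deposited RPKM. On the scaled log2 scale it varied less than Plat, at -0.23 to 0.20 around its mean against -0.25 to 0.63. It had 4.91, 5.41, 5.02, 5.67 and 5.74 RPKM at day 30 after bleomycin, 6.32, 7.15 and 7.29 RPKM at day 14, 4.78, 4.90 and 4.31 RPKM after pneumonectomy, and 4.41 and 5.02 RPKM in sham. It was higher at day 14 after bleomycin than in sham by 0.30 ± 0.09 on the log2 scale (adjusted p = 0.0112), a call lost without sham replicate 1 (0.21), and lower at day 30 than at day 14, by -0.24 ± 0.07 (adjusted p = 0.0125). Against pneumonectomy the day 14 difference of 0.10 ± 0.08 was not called (adjusted p = 0.279). It was called on the scale as deposited (0.56), where the median gene was shifted by 0.47, and with upper-quartile scaling (0.21). Endothelial cells make Tfpi, and bleomycin replicate 1, with summed endothelial markers of 298 RPKM against 578 and 535 in replicates 2 and 3, had the lowest Tfpi of the 3. Their part in the result was not tested. The ratio of F3 to Tfpi was 4.46 to 8.80 at day 30 after bleomycin, 0.914 to 1.17 at day 14, 4.74 to 5.75 after pneumonectomy, and 9.32 and 9.87 in sham.

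**Figure D3:**
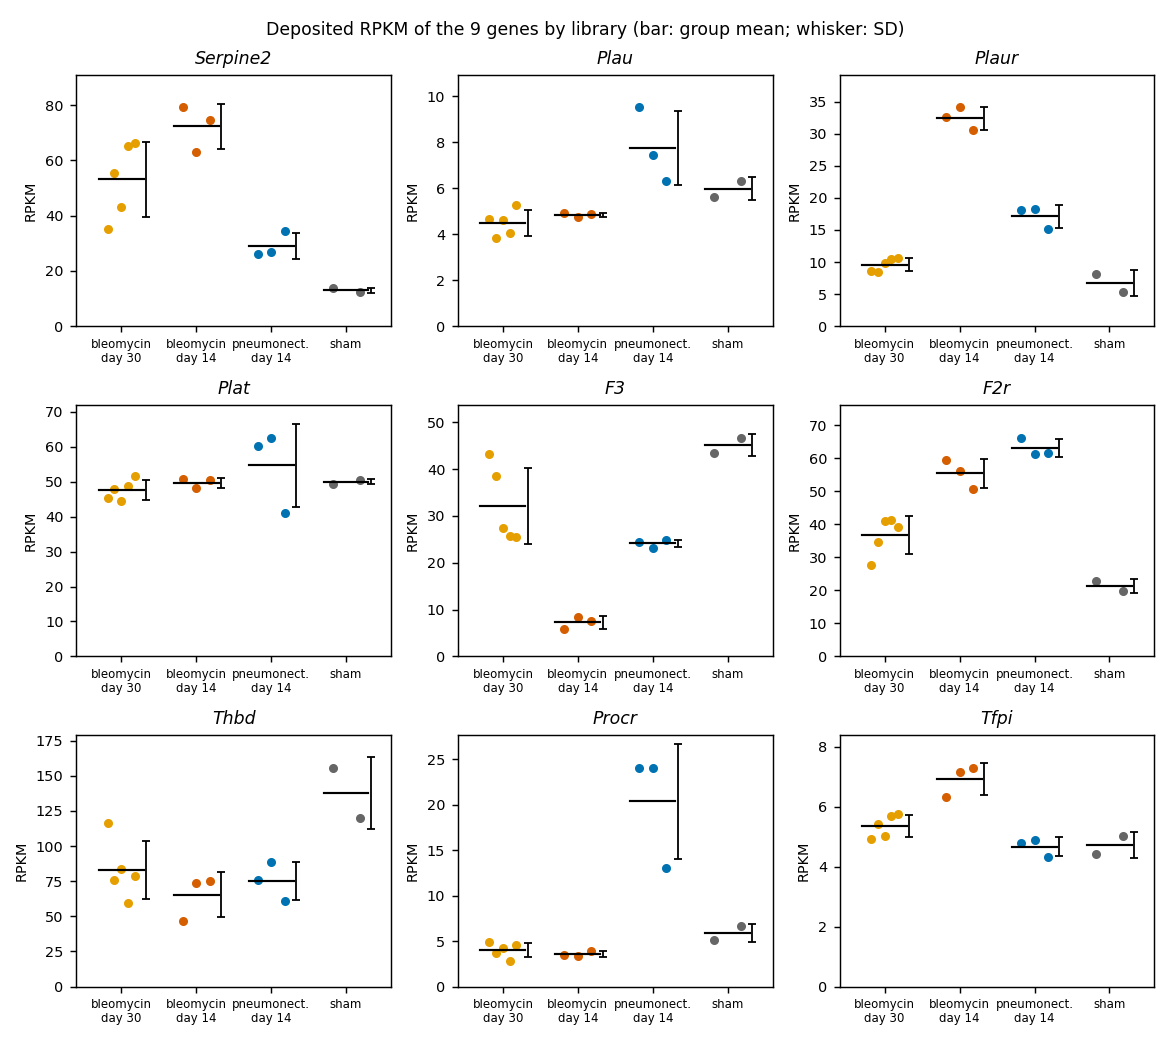
Deposited RPKM (y axis, from 0) of each of the 9 genes in the 13 libraries by group, with a point per library, a bar at the group mean and a whisker for the SD. F3 is at 5.78 to 8.38 at day 14 after bleomycin and at 43.5 and 46.7 in sham, and Procr is at 12.99 to 24.0 after pneumonectomy and at most 6.62 elsewhere.

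F2r, the thrombin receptor, rose after both injuries, and more after pneumonectomy. It had 27.7, 34.6, 41.0, 41.3 and 39.3 RPKM at day 30 after bleomycin, 59.6, 56.3 and 50.8 RPKM at day 14, 66.3, 61.3 and 61.7 RPKM after pneumonectomy, and 22.9 and 19.9 RPKM in sham. No 2 of the 4 groups overlapped. The log2 change over sham was 1.78 ± 0.16 after pneumonectomy (adjusted p = 1.30e-05), 1.13 ± 0.16 at day 14 after bleomycin (adjusted p = 7.60e-05) and 0.65 ± 0.15 at day 30 (adjusted p = 0.00772). Without sham replicate 2 the day 30 change was no longer called (adjusted p = 0.0849). F2r was lower at day 30 than at day 14, by -0.48 ± 0.13 (adjusted p = 0.00653), and than after pneumonectomy, by -1.13 ± 0.13 (adjusted p = 2.42e-05). Day 14 bleomycin was below pneumonectomy by -0.65 ± 0.14 (adjusted p = 0.00149), but on the scale as deposited the difference was -0.19 (adjusted p = 0.233). Pericytes and smooth muscle also carry F2r. Their 7 markers summed to 91.0 to 124 RPKM at day 14 after bleomycin and to 273 to 393 RPKM after pneumonectomy, against 301 and 166 RPKM in sham. Against sham, 0 of the 7 were higher and 4 lower at day 14 after bleomycin, and 4 were higher and 1 lower after pneumonectomy, where F2r was highest. The endothelial markers summed to 298 to 578 RPKM at day 14 after bleomycin, against 21.6 and 25.1 RPKM in sham. They were at 13.2 to 16.7 RPKM at day 30 and at 18.7 to 44.5 RPKM after pneumonectomy. Of the 10 endothelial markers, 9 were higher and 1 lower after pneumonectomy than in sham. The part of either kind of cell in the F2r levels was not tested.

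Thbd had the highest mean RPKM of the 9 genes over all libraries, although Serpine2 was above it at day 14 after bleomycin, and it fell against sham after bleomycin. It had 116, 75.6, 83.6, 59.6 and 78.7 RPKM at day 30 after bleomycin, 46.7, 73.7 and 75.5 RPKM at day 14, 75.8, 88.4 and 61.0 RPKM after pneumonectomy, and 156 and 120 RPKM in sham. Every library of injured lung lay below both sham libraries. Against sham Thbd fell by 1.34 ± 0.27 on the log2 scale at day 14 after bleomycin (adjusted p = 0.00118), kept under all alternatives run, and by 0.88 ± 0.25 at day 30 (adjusted p = 0.0234). The day 30 call was lost without either sham library (adjusted p = 0.173 and 0.0562 without replicates 1 and 2). After pneumonectomy the change was -0.66 ± 0.27 and not called (adjusted p = 0.0741), but it was called on the scale as deposited (-0.88) and with upper-quartile scaling (-0.79). Endothelial cells are a main source of thrombomodulin, and bleomycin replicate 1, the one with the fewest endothelial reads, had the lowest Thbd. The summed endothelial markers of all 3 of these libraries were above those of sham. Their part in the Thbd levels was not tested. The difference between day 14 bleomycin and pneumonectomy, -0.68 ± 0.25 (adjusted p = 0.0257), was lost without bleomycin replicate 1 (-0.48), without pneumonectomy library A or B (adjusted p = 0.0574 and 0.0917) and on the scale as deposited (-0.22).

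Procr, the partner of Thbd in activating protein C, went the other way after pneumonectomy. It had 4.85, 3.64, 4.26, 2.84 and 4.58 RPKM at day 30 after bleomycin, 3.44, 3.35 and 3.90 RPKM at day 14, 24.0, 24.0 and 12.99 RPKM after pneumonectomy, and 5.16 and 6.62 RPKM in sham. All bleomycin libraries lay below both sham libraries and all pneumonectomy libraries above them. The log2 change over sham was 1.95 ± 0.28 after pneumonectomy (adjusted p = 2.64e-04), a 3.86-fold rise, and -0.94 ± 0.28 at day 14 after bleomycin (adjusted p = 0.0109). The fall at day 14 was lost without sham replicate 2 (-0.77, adjusted p = 0.0891). At day 30 the change of -0.67 ± 0.25 was not called (adjusted p = 0.0691). Procr was lower after bleomycin than after pneumonectomy, by -2.89 ± 0.25 for day 14 bleomycin over pneumonectomy (adjusted p = 1.29e-06) and -2.61 ± 0.22 for day 30 over pneumonectomy (adjusted p = 3.85e-06). Mesothelial cells also make Procr, and all 6 mesothelial markers were higher after pneumonectomy than in sham. Within that group Procr was lowest in library C, at 12.99 RPKM, which had the highest mesothelial sum, 43.5 RPKM, against 19.4 and 12.5 RPKM in libraries A and B. Of 10 endothelial markers, 9 were higher and 1 lower after pneumonectomy than in sham, with a median log2 change of 1.84. Their sums in libraries A, B and C were 34.2, 18.7 and 44.5 RPKM. At day 14 after bleomycin, where Procr fell, 9 of them were higher than in sham and 0 lower. The part of mesothelial or endothelial cells in the Procr levels was not tested.

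The ratio of Thbd to Procr was 17.2 to 23.9 at day 30 after bleomycin, 13.6 to 22.0 at day 14, 3.16 to 4.69 after pneumonectomy, and 30.2 and 18.1 in sham. Both genes fell against sham at day 14 after bleomycin, and their ratio there overlapped with day 30 and with sham.

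Among the other genes of the plasminogen system, a list of 18 that included the plasminogen gene itself, 8 passed the filter and 10 never reached 1 RPKM. At day 14 after bleomycin 2 were higher and 1 lower than in sham, after pneumonectomy 4 were higher and 0 lower, and at day 30 2 were higher and 1 lower. The called shares over all genes were 63.3%, 42% and 28.8%. The median log2 change of the 8 genes was 0.29, 0.46 and 0.18 in these comparisons, beside 0.024, 0.0054 and -0.0023 over all genes. Between day 14 bleomycin and pneumonectomy 3 were higher and 4 lower, where 70.8% of all genes were called, 36.2% higher and 34.6% lower.

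Lrp1, the receptor that clears protease and serpin complexes, was at 40.5 ± 5.40 RPKM at day 14 after bleomycin (SD, n = 3), against 99.5 ± 19.7 RPKM in sham (n = 2), a log2 change of -1.53 ± 0.16 (adjusted p = 8.14e-06). It was below pneumonectomy by -1.45 ± 0.15 (adjusted p = 3.98e-06) and higher again at day 30 than at day 14, by 1.06 ± 0.13 (adjusted p = 2.80e-05). Its remaining differences, at day 30 against sham (-0.47) and against pneumonectomy (-0.38), were called at adjusted p = 0.0360 and 0.0246 and lost under several alternatives. Mrc2, a collagen uptake receptor that associates with the urokinase receptor, was higher than in sham after pneumonectomy by 0.94 ± 0.15 (adjusted p = 5.14e-04). At day 30 after bleomycin Mrc2 was higher by 0.41 ± 0.14 (adjusted p = 0.0444), a call lost under several alternatives, and it was lower than after pneumonectomy by -0.54 ± 0.12 (adjusted p = 0.00247), lost on the scale as deposited (-0.19). Anxa2, a surface protein that binds Plat and plasminogen, was lower at day 30 than at day 14 after bleomycin by -0.75 ± 0.12 (adjusted p = 1.60e-04).

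Of 27 other coagulation genes, among them those of factors made by the liver, 9 passed the filter and 17 never reached 1 RPKM. At day 14 after bleomycin 4 were higher and 2 lower than in sham, after pneumonectomy 3 were higher and 0 lower, and at day 30 2 were higher and 1 lower. Over all genes 63.3%, 42% and 28.8% were called in these comparisons. Tfpi2, a matrix-bound inhibitor of plasmin and of tissue factor with factor VII, was at 15.9, 16.1 and 9.82 RPKM after pneumonectomy, against 2.91 and 2.99 RPKM in sham. That is a log2 change of 2.39 ± 0.22 (adjusted p = 1.67e-05). Day 14 and day 30 bleomycin were below pneumonectomy in Tfpi2 by -1.77 ± 0.20 and -2.31 ± 0.18 (adjusted p = 9.69e-06 and 2.08e-06).

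Ggcx and Vkorc1 form the vitamin K cycle that modifies clotting factors and several matrix proteins. At day 14 after bleomycin they fell against sham by 0.92 ± 0.06 and 0.97 ± 0.15 on the log2 scale (adjusted p = 3.96e-07 and 1.18e-04). Ggcx was higher at day 30 than at day 14, by 0.74 ± 0.05 (adjusted p = 3.54e-07), and against sham its day 30 change was -0.18 ± 0.06 (adjusted p = 0.0368), a call lost under several alternatives. Pros1, which encodes the protein C cofactor protein S, was higher than in sham after pneumonectomy by 0.49 ± 0.09 (adjusted p = 9.73e-04). At day 30 after bleomycin Pros1 was higher by 0.28 ± 0.08 (adjusted p = 0.0209), lost without sham replicate 1 (0.18). Vwf, an endothelial gene that also stands in the endothelial marker list, was at 18.0 ± 3.00 RPKM at day 14 after bleomycin, against 0.486 ± 0.283 RPKM in sham. Its log2 changes were 4.80 ± 0.38 over sham, 2.62 ± 0.34 over pneumonectomy, and -5.68 ± 0.30 for day 30 over day 14.

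The genes whose profiles were most like those of the members were found by the root-mean-square difference of log2 values over the 13 libraries, each gene centred on its own mean, among 10701 named protein-coding genes. For Serpine2 they were Rab31, Foxf2 and Mtss1l, at 0.11, 0.11 and 0.17, where the median gene lay at 0.80. For Plaur they were Tnfrsf10b, Rin3 and Cdkn1a (0.20, 0.25 and 0.27, median 0.84), and for F2r they included Palld and Zswim6 (0.19 each, median 0.68). F3 was near to Aspa and Foxp2 (0.19 each, median 1.08), and Thbd was nearest to Epha4, Fyn and Trip10 (0.18, 0.19 and 0.21, median 0.58).

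Procr was nearest to Icam1, Birc3 and Zbtb10 (0.21, 0.22 and 0.28, median 1.19). Icam1 had 152, 157 and 115 RPKM after pneumonectomy, against 36.4 and 35.5 RPKM in sham, with library C lowest as for Procr. Plau was nearest to Nfe2l2, Elmsan1 and Impdh2 (0.13, 0.16 and 0.16, median 0.57). Plat and Tfpi, which varied little, lay near to other even genes, Plat to Srrm2, Ell and Ythdc2 (0.09 to 0.11) and Tfpi to Cdk14, Ppp3cc and Zfp335 (0.06 to 0.07).

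Among the 9 genes themselves the nearest pairs were Plat with Tfpi (0.27) and Plat with Plau (0.27). Of the genes that rose, F2r and Plaur lay 0.48 apart, F2r and Serpine2 0.73 and Plaur and Serpine2 0.77. The farthest were F3 and Plaur, at 1.74. These distances describe 13 libraries that share 4 groups.

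**Figure D4:**
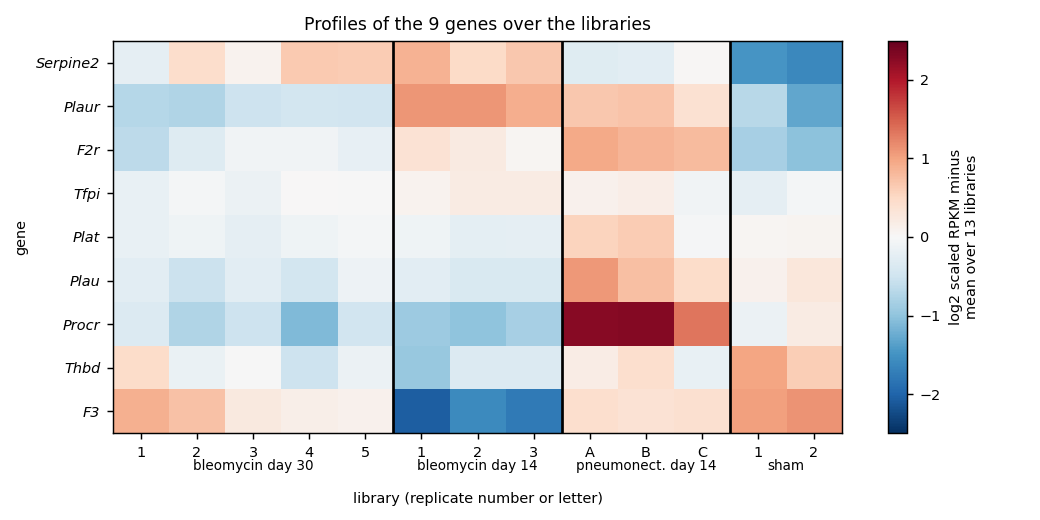
Log2 scaled RPKM of the 9 genes (rows) in the 13 libraries (columns, by group), each gene as the difference from its own mean over the libraries. F3 is lowest, at -2.06, in a day 14 bleomycin library, and Procr highest, at 2.29, in a pneumonectomy library.

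Within the day 30 bleomycin group 1 library, singled out after its values were seen, lay at the edge for several of the 9 genes. Replicate 1 had the lowest Serpine2 (35.2 RPKM), F2r (27.7 RPKM) and Tfpi (4.91 RPKM) of the 5. It had the highest F3 (43.2 RPKM), Thbd (116 RPKM) and Procr (4.85 RPKM). That it was closest to the sham mean in these genes follows from this order and adds nothing to it. The outlier check described below flagged none of the 9 genes in this group. Replicate 1 also had the lowest macrophage sum, 199 RPKM, and the lowest mesothelial sum, 4.35 RPKM, of its group. Its granulocyte sum, 63.8 RPKM, was the highest, and whether these go with the levels of the genes was not tested.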

How the data were processed

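RNA was sequenced from 13 libraries of mouse lung fibroblasts, with 200 ng of RNA each per the labels' protocols. For the sham and bleomycin libraries these add poly(A) selection, an RNA quality number of at least 6 and 12 cycles of PCR. None of these is stated for pneumonectomy, so a difference in preparation cannot be told apart from that group. The deposited values are RPKM, computed by the authors, as the file headers name them. The build is mm10, per the submitters' processing notes, while for aligner, counter and annotation the entry is: not given in the sources used here. All 13 value columns were used. The labels do not say that libraries came from separate mice, so p-values measure the spread between libraries.

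A trimmed mean of M-values (trims of 0.3 on M and 0.05 on A) gave each library a scale factor for its RPKM, and log2(value + 0.1) was fitted with limma 3.58.1 in R 4.3.3, with 1 mean per group over all 13 libraries, an intensity trend and robust empirical Bayes. The test took in 12938 genes, those that reached 1 RPKM in 2 or more libraries. P-values are two-sided and Benjamini-Hochberg adjusted over these. Levels are deposited RPKM. Log2 changes are on the scaled log2 scale. Depth came from ratios of values under 0.03 RPKM and GENCODE exon lengths. Of 31890 low values, 99.8% came out, within 0.01, as multiples of a unit set by the smallest value of their gene. That check bears on the depth of the libraries relative to each other and not on the absolute number of reads. The limma script was tested on simulated data. Replicate numbers did not pair libraries (correlations of deviations of -0.13 to 0.14). Named genes are the 9 members, up to 4 called genes of the 2 pathway lists per comparison (the largest changes among those whose higher mean is 5 RPKM or more), up to 3 genes of like profile per member, and listed markers. Some genes that this rule names are not reported here. Members, lists, motifs and tests were chosen with earlier results of these data known. Adgre1 was found under its older symbol Emr1.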

Additional observations from a re-analysis of the deposited data

Results flagged for a closer look

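The summed RPKM of 7 lung epithelial markers at day 30 after bleomycin was far from the others in replicate 3, at 1232 RPKM, against 6.995 to 15.1 RPKM in the other 4 libraries. It was 1 of 23 sets of 5 values examined in this way, and chance alone gives about 1 in 20. All calls of the 9 genes between day 30 and day 14 after bleomycin were kept without that library.

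The change over sham differed between day 30 and day 14 after bleomycin in 4 of the 9 genes by the test of the difference itself. The difference (day 30 minus day 14, log2) was -1.63 for Plaur, 2.23 for F3, -0.48 for F2r and -0.24 for Tfpi. The day 30 libraries come from female and the day 14 libraries from male mice by their Xist and Ddx3y levels, which cannot be told apart from time.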

How the results depend on the processing

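Of 37 called results among the 54 of the 9 genes, 21 kept their side of the threshold under every alternative run, 16 lost the call under at least 1, and 0 changed direction. On the scale as deposited the median of all genes moved to 0.26, -0.21, 0.47, -0.13, 0.11 and 0.34 (day 14 bleomycin over sham, pneumonectomy over sham, day 14 bleomycin over pneumonectomy, day 30 over day 14, day 30 over sham, day 30 over pneumonectomy). The counts of genes higher and lower were then 6193 and 2451, 1762 and 5185, 7918 and 2307, 2785 and 5213, 3105 and 957, and 7408 and 1725, against 4318 and 3870, 2930 and 2500, 4684 and 4474, 3741 and 3971, 1912 and 1819, and 3693 and 3756 after scaling.

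Differences that were not called changed sign on that scale for Tfpi after pneumonectomy over sham (-0.015), Plau (-0.11) and Plat (-0.065) at day 30 over day 14, and Thbd (0.12) and Tfpi (0.19) at day 30 over pneumonectomy, the last also with upper-quartile scaling (0.0020). With 1 library left out, some others crossed 0. Plau ranged from -0.0378 to 0.0611 at day 30 over day 14, F3 from -0.0817 to 0.117 at day 30 over pneumonectomy, and Tfpi from -0.0285 to 0.151 at day 30 over sham. The causes were not tested.

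The count of the 9 genes called at day 30 over sham, 5, was 1 to 5 with 1 library left out: 3 without sham replicate 1 and 1 without sham replicate 2. Leaving out a sham library leaves 1, which is assumed to vary like the other groups. With the replicate number as a block that count was 1, Plau at day 30 over day 14 was -0.0043, and F2r there (-0.56, adjusted p = 0.0538) and F7 at day 30 over sham (3.16, adjusted p = 0.0713) were not called. The numbers do not pair the libraries, not every library correlated best with its own number, and the pneumonectomy columns carry none. The block called 369 genes at day 30 over sham, against 3731 without it. That count was 2333 and 1785 without sham replicates 1 and 2, and for pneumonectomy over sham it was 3340 without sham replicate 2 and 3372 with the compared groups alone, against 5430. With at least 5 RPKM asked for, fewer genes were tested and 4007, 2624, 4363, 3841, 1902 and 3480 were called, in the order above, against 8188, 5430, 9158, 7712, 3731 and 7449. With 2 sham libraries, each call against sham rests on few values.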

Other observations

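Genes under the level set for naming also moved, and 2 were chosen after their values were seen. F7, which encodes factor VII, the ligand of tissue factor, had 0.808, 2.505, 3.82, 1.99 and 2.59 RPKM in the 5 day 30 bleomycin libraries and 0.452, 2.64 and 1.97 RPKM at day 14, against 0.127 and 0.0449 RPKM in sham. Its log2 change over sham was 3.52 ± 0.60 at day 30 (adjusted p = 0.00179) and 2.81 ± 0.65 at day 14 (adjusted p = 0.00268), sizes that depend on the pseudocount (1.504 and 1.09 with a pseudocount of 1). The summed macrophage markers in the same libraries were 199, 494, 743, 414 and 522 RPKM at day 30 and 131, 453 and 354 RPKM at day 14, with the lowest and the highest library of each group the same as for F7. Their part in the result was not tested.

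Serpinb2, another serpin that blocks urokinase, was at 2.37, 1.68 and 1.61 RPKM at day 14 after bleomycin and 0.398, 0.181 and 0.488 RPKM after pneumonectomy, against 0.0189 and 0.00592 RPKM in sham. The log2 changes over sham were 3.94 ± 0.45 and 2.16 ± 0.45 (adjusted p = 1.44e-05 and 0.00289), and fell to 1.38 and 0.49 with a pseudocount of 1. Serpinb2 was also higher at day 14 after bleomycin than after pneumonectomy in the direct comparison (1.78 ± 0.40, adjusted p = 0.00186), as was Serpine2 (0.85 ± 0.21, adjusted p = 0.00365).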
